A study of Mus musculus with 6 samples.

Results

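Growth factor receptors and the adaptors that sit under them were described in 6 mouse RNA-Seq libraries. The 10 genes, of 30281 gene symbols in all, were chosen by name, with earlier results of these data known. They are the insulin receptor substrates *Irs1* and *Irs2*, the insulin and IGF receptors *Insr* and *Igf1r*, the PDGF receptors *Pdgfra* and *Pdgfrb*, the ErbB receptors *Egfr*, *Erbb2* and *Erbb3*, and the inhibitory adaptor *Grb10*. All 10 were found. MEFs are mouse embryo fibroblasts, with 1 library labelled *Tsc2+/+* p53-/- and 1 labelled *Tsc2-/-* p53-/-, both untreated. MKOC and TJ are *Tsc2*-null mouse kidney epithelial cell lines, and TJ was derived from a secondary tumor grown in C57BL6 mice. Each kidney line gave 1 untreated library and 1 from cells kept in 100 nM rapamycin, an inhibitor of mTORC1, for 18 hours, in serum-free medium with BSA. The labels do not say which promoter or Cre made the null alleles or whether a line is 1 clone, and both untreated and treated kidney cells lack a *Tsc2*-expressing counterpart.

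As background, ligand binding to these receptors recruits adaptors, among them IRS1 and IRS2, and activates PI3K, AKT and ERK. AKT keeps FoxO transcription factors out of the nucleus and, by inhibiting TSC2, turns mTORC1 on. Active mTORC1 and its kinase S6K in turn damp the receptors: they phosphorylate IRS1, which lowers its level, and they phosphorylate and stabilize GRB10, which holds back the insulin and IGF1 receptors. FoxO factors are known to raise transcription of several receptor genes, including *Insr*, *Irs2* and *Erbb3*, and loss of TSC1 or TSC2 is known to lower PDGF receptors in fibroblasts. Much of this feedback acts on proteins, and the libraries measure RNA only.

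Promoter sequences are shown for the adaptors *Irs1* and *Irs2*, whose windows held the motifs shown in capitals, for *Egfr*, the receptor that changed most with rapamycin, and for both starts of *Grb10*, whose transcripts are described by start. They are the 250 bases before the start site on the gene's own strand, from the RefSeq table of GRCm38.p6, which held windows for 7 of the 10 members (8 windows, with none for *Insr*, *Erbb3* or *Pdgfrb*). Capitals mark TCACGTG, an E-box preceded by T, and CAAAACA, the core of the insulin response element, each searched on both strands. Read from the other strand, the latter is written TGTTTTG. The E-box is the kind of site bound by basic helix-loop-helix factors such as TFE3, and the insulin response element is a kind bound by FoxO factors.
Irs1 (chr1:82291440-82291689, minus strand): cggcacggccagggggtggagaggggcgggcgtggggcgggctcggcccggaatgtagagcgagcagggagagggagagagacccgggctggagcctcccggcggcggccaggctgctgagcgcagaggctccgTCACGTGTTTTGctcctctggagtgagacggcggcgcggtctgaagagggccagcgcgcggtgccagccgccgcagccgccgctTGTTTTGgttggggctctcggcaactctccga
Irs2 (chr8:11008930-11009179, minus strand): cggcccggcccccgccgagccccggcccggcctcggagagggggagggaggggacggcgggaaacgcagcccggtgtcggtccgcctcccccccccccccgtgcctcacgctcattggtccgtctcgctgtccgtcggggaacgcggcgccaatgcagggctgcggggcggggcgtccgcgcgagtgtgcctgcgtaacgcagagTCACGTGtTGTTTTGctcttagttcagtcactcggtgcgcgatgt
Egfr (chr11:16751953-16752202, plus strand): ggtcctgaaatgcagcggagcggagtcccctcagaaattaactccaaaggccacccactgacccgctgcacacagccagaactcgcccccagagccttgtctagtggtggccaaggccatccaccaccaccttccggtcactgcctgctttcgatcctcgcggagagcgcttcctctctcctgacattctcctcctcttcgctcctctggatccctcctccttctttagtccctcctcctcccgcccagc
Grb10, upstream start (chr11:12037421-12037670, minus strand): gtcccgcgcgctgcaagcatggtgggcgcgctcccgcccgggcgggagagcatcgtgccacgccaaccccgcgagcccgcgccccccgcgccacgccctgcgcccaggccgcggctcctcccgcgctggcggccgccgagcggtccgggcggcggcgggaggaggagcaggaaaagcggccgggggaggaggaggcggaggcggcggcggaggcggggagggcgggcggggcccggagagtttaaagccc
Grb10, downstream start (chr11:12027972-12028221, minus strand): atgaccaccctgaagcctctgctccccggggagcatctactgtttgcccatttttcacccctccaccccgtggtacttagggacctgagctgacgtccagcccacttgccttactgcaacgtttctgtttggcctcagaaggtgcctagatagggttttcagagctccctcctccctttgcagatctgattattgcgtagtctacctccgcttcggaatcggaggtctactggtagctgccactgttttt
The promoters of *Irs1* and *Irs2* held the same pair of motifs side by side. In *Irs1*, the E-box began 116 bases before the start site and the insulin response core 111 bases before it, so that the motifs overlapped by 2 bases, and a second core began 32 bases before the start. In *Irs2*, they began 45 and 37 bases before the start with 1 base between them. No other member's window held either motif. Of the same 250 bases in all 32851 windows of the table, 3.13% held the former and 5.56% the latter motif. The plain E-box CACGTG, which lies within the former, was in 6.02%. The forkhead core GTAAACA was in no member's window and in 3.17% of all windows. Of the other motifs searched, TGANTCA (AP-1, in 6.75% of all windows) and TTCNNNGAA (STAT, in 7.02%) were in no member's window, and the GC box GGGCGG (in 32.7%) was in those of *Irs1*, *Irs2*, *Igf1r*, *Egfr* and the upstream *Grb10* start. The motifs were chosen after the windows were read, and a match is a description of letters, not of binding. The upstream *Grb10* window was 81.2% G or C with 40 CpG, against 54.0% and 8 CpG for the downstream window. GENCODE's gene start lay 23 bases from the RefSeq start for *Irs1*, 471 bases downstream of it for *Irs2*, and at the same base for *Egfr*.

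Values are TPM, a level per transcript length and per library, or estimated counts, both summed per gene. The libraries held 22887020 to 37505004 estimated counts. Each condition of the MEFs rests on 1 library, and nothing in the labels says that libraries came from separate cultures. The p-values thus measure only the spread between these libraries. With so few libraries, the fits also draw each gene's spread in large part from that of other genes. Wilson 95% intervals cover counting error only. *Tsc2* RNA was 22.6 TPM in *Tsc2+/+* and 10.5 TPM in *Tsc2-/-* MEFs, 44.0 to 49.1 TPM in untreated and 19.1 to 19.5 TPM in rapamycin-treated kidney cells. *Trp53* RNA was between 26.3 and 148.5 TPM in all libraries. The counts do not show which exons were covered, so these levels do not check the genotypes, and groups are named as labelled. Kidney lines held the renal tubule genes *Pax8* (121.2 to 164.3 TPM), *Cdh16* and *Pax2* and the epithelial genes *Cdh1*, *Krt8* and *Krt18*, with *Lhx1* and *Cldn7* at 0, *Krt19* under 1 TPM and *Epcam* at or below 0.0268 TPM. The MEF libraries held *Col1a1*, *Col1a2* and *Col3a1* at 273.9 to 996.3 TPM, but of 8 fibroblast markers only 5 in *Tsc2+/+* and 7 in *Tsc2-/-* MEFs reached 1 TPM, with *Thy1* at 0 and *Fbn1* at 0.498 TPM in *Tsc2+/+* MEFs and *Lum* at or below 0.135 TPM in both. The *Tsc2-/-* MEF library also held all 6 mesothelial markers (477.5 TPM summed, against 2.66 in *Tsc2+/+* MEFs), with *Krt19* at 55.6 and *Krt18* at 20.6 TPM. In bulk libraries, fewer cells of a type and less RNA per cell cannot be told apart.

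**Figure D1:**
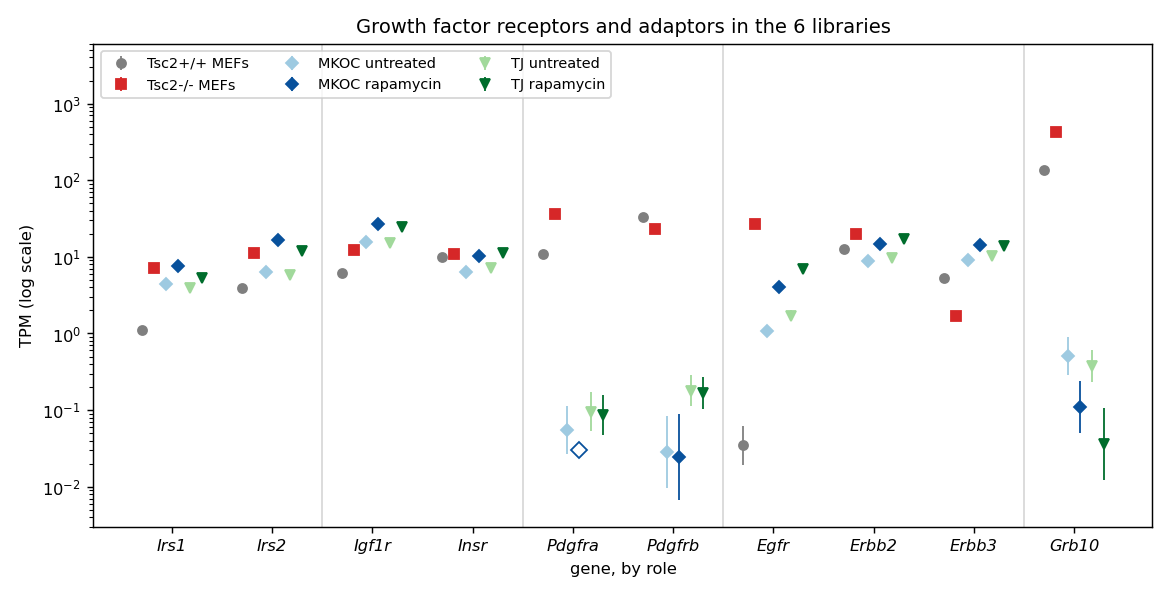
TPM of the 10 genes (log scale) in each of the 6 libraries, with 95% Wilson counting intervals, 1 point per library. The open diamond is Pdgfra in rapamycin-treated MKOC cells, which had 0 counts and is drawn at the level of 3 counts (0.0302 TPM). Grb10, Pdgfra and Pdgfrb were at 10.8 TPM or more in both MEF libraries and under 1 TPM in all 4 kidney libraries.

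*Irs1*, *Irs2*, *Igf1r*, *Insr*, *Erbb2* and *Erbb3* were above 1 TPM in all 6 libraries. *Grb10* led both MEF libraries, with 134.7 TPM in *Tsc2+/+* and 421.6 TPM in *Tsc2-/-* MEFs, while *Igf1r* led all 4 kidney libraries, with 15.6 TPM in untreated MKOC and 15.0 TPM in untreated TJ cells. Both PDGF receptors and *Grb10* were close to absent from the kidney lines. Over all 6 libraries, 5 members had all 4 kidney libraries on 1 side of both MEF libraries (2 above, *Igf1r* and *Erbb3*, and 3 below, *Grb10*, *Pdgfra* and *Pdgfrb*), a share close to the 48.2% of 13913 genes with such a pattern.

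*Grb10* had 20538 and 31453 estimated counts in the MEF libraries and 3 to 17 in the kidney libraries. Its level in kidney cells was 0.507 TPM in untreated MKOC, 0.111 TPM in treated MKOC, 0.375 TPM in untreated TJ and 0.0361 TPM in treated TJ cells. Untreated kidney cells were lower than MEFs by a log2 difference of -10.82 (SE 0.74, n = 2 against 2, adjusted p = 0.0147, quasi-likelihood test of edgeR, Benjamini-Hochberg adjusted). In this comparison the MEF libraries differ in *Tsc2* genotype and the kidney libraries in line, so each SE includes those differences. Both kidney lines are *Tsc2*-null, so the kind of cell is partly mixed with the genotype. In both MEF libraries nearly all counts came from the transcript that begins at the upstream, CpG-rich start. It took 94.5% (interval 94.2% to 94.8%) in *Tsc2+/+* and 93.9% (93.7% to 94.2%) in *Tsc2-/-* MEFs. The transcript from the downstream start took 4.99% and 5.44%. *Grb10* is known as an imprinted gene with maternal expression in most tissues and paternal expression from a separate promoter in neurons.

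*Pdgfra*, which binds PDGF-A and PDGF-C dimers, had 10.8 TPM (interval 10.3 to 11.2) in *Tsc2+/+* and 36.1 TPM (35.0 to 37.3) in *Tsc2-/-* MEFs. Its kidney levels were 0.0545 TPM in untreated MKOC, 0.0955 TPM in untreated TJ and 0.0864 TPM in treated TJ cells, from 7, 11 and 10 counts. Treated MKOC cells had 0 counts, with an interval up to 0.0386 TPM, and 3 counts would have been 0.0302 TPM. The log2 difference of untreated kidney cells from MEFs was -8.28 (SE 0.72, adjusted p = 0.0169, edgeR).
*Pdgfrb*, the main PDGF-B receptor, had 33.0 TPM in *Tsc2+/+* and 23.2 TPM in *Tsc2-/-* MEFs. In the kidney libraries it had 0.0285 and 0.0245 TPM in MKOC cells, untreated and treated, and 0.180 and 0.169 TPM in TJ cells. These levels rest on 2 to 17 counts, and the log2 difference from MEFs was -8.26 (SE 1.03, adjusted p = 0.0298, edgeR). The PDGF receptors had only 0.0245 to 0.276 TPM between them in any kidney library, whereas the ligand *Pdgfb* was at 42.7 to 106.6 TPM there and at 0.128 to 0.260 TPM in the MEFs.

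The 3 genes lower in kidney cells were the members called in this comparison, out of 10 tested. Over all genes, 5.2% of 13473 were called lower and 4.74% higher. The other 7 did not pass with edgeR. With DESeq2, 5 members were called lower, the same 3 and also *Insr* (log2 difference -0.73, SE 0.28, adjusted p = 0.039) and *Erbb2* (-0.87, SE 0.24, adjusted p = 0.00176), against 15.3% of 14552 genes. Among the 7 in the edgeR fit, *Erbb3* (log2 difference 1.22, SE 0.76, adjusted p = 0.336) and *Igf1r* (0.67, SE 0.27, adjusted p = 0.179) were higher in each kidney library than in each MEF library. Leaving out either untreated kidney library ended all calls, with 0 genes called by edgeR (1511 and 1487 at an unadjusted p under 0.05). Leaving out 1 MEF library raised the calls to 6886 without *Tsc2+/+* and to 7924 without *Tsc2-/-* MEFs, fits in which the lone MEF library is assumed to vary like the kidney pair. Without *Tsc2+/+* MEFs, 1 member was called higher and 8 lower, against 23.0% and 24.7% of 14427 genes. Without *Tsc2-/-* MEFs, 4 were called higher and 5 lower, against 28.6% and 27.5% of 14122 genes. Without the *Tsc2-/-* library, *Egfr* turned from a log2 difference of -3.23 to 3.96 and *Irs2* from -0.34 to 0.26.

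Within the untreated kidney lines the order of the expressed members was the same. *Igf1r* was highest, followed by *Erbb3*, *Erbb2*, *Insr*, *Irs2*, *Irs1* and *Egfr*. *Erbb3* and *Erbb2* were not separated by counting error in either line (9.23, interval 8.70 to 9.80, against 8.76, interval 8.17 to 9.38, in MKOC), nor were *Insr* and *Irs2* in MKOC cells (6.37 and 6.31 TPM). *Egfr* was lowest of the 7, at 1.07 TPM (0.898 to 1.29) in MKOC and 1.71 TPM (1.46 to 2.01) in TJ cells. None of the 7 differed at least 2-fold between TJ and MKOC cells in both treatments, a difference found for 1.27% of 12414 genes. With 1 TPM added, the widest gap was that of *Egfr*, with log2 ratios of TJ to MKOC of 0.39 untreated and 0.62 with rapamycin.

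Rapamycin treatment of the kidney lines addressed which genes respond when mTORC1 is inhibited in *Tsc2*-null cells. All 7 members expressed there rose. *Egfr* rose most, 3.37-fold, followed by *Irs2* (2.32-fold), *Erbb2* (1.73-fold), *Igf1r* (1.66-fold), *Insr* (1.57-fold), *Irs1* (1.55-fold) and *Erbb3* (1.43-fold). Of 9 members tested, 7 were called higher, while over all genes 17.5% of 12952 were called higher and 17.4% lower. The median log2 change of the 9 was 0.65, against 0.02 for all genes tested. Because the members were chosen with earlier results of these data known, these values describe them and are not a test of the set. Both treated libraries were above both untreated ones for each of the 7, as for 29.9% of 12414 genes.

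*Egfr*, the receptor for EGF, TGF-alpha and amphiregulin, went from 1.07 to 4.09 TPM in MKOC and from 1.71 to 6.84 TPM in TJ cells. The treated libraries did not overlap the untreated ones. The fitted log2 change was 1.75 (SE 0.17, n = 2 pairs, adjusted p = 6.9e-05, edgeR's quasi-likelihood test with the line as a covariate), above that of 99.1% of genes. The change was 1.75 in each line.

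*Irs2*, an adaptor of the insulin and IGF1 receptors, went from 6.31 to 16.4 TPM in MKOC and from 5.73 to 11.9 TPM in TJ cells. Its log2 change was 1.21 (SE 0.13, adjusted p = 0.00014, edgeR). *Irs1*, the other adaptor, went from 4.38 to 7.70 TPM and from 3.89 to 5.38 TPM, a log2 change of 0.63 (SE 0.13, adjusted p = 0.00373). Both adaptors rose more in MKOC than in TJ cells, by 0.80 and 0.46 for *Irs1* and by 1.37 and 1.05 for *Irs2* on the log2 scale. With 1 pair per line, the difference between lines was not tested.

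*Igf1r*, the receptor for IGF1 and IGF2, went from 15.6 to 26.8 TPM in MKOC and from 15.0 to 24.2 TPM in TJ cells. Its log2 change was 0.73 (SE 0.11, adjusted p = 0.00076, edgeR). *Insr*, the insulin receptor, rose from 6.37 to 10.3 TPM and from 7.21 to 11.1 TPM, a log2 change of 0.65 (SE 0.11, adjusted p = 0.00145). The changes in the separate lines lay close together, at 0.77 and 0.69 for *Igf1r* and 0.69 and 0.61 for *Insr*.

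*Erbb2*, which has no ligand of its own and pairs with the other ErbB receptors, rose from 8.76 to 14.9 TPM in MKOC and from 9.68 to 17.2 TPM in TJ cells. Its log2 change was 0.79 (SE 0.11, adjusted p = 0.0006, edgeR). *Erbb3*, a neuregulin receptor whose kinase is impaired, rose from 9.23 to 14.3 TPM and from 10.3 to 13.7 TPM, a log2 change of 0.51 (SE 0.11, adjusted p = 0.00638). *Erbb3* had the smallest change of the 7. Within the treated libraries the order of levels shifted: *Irs2* stood above *Insr* in both lines (11.9, interval 11.2 to 12.8, against 11.1, interval 10.6 to 11.6, in TJ cells, which counting error did not separate), and *Egfr* (6.84 TPM) stood above *Irs1* (5.38 TPM) in TJ cells. The latter order rested on Egfr-204, a transcript of 716 bases with no coding sequence, which held 2.81 of the 6.84 TPM from 27.1 counts, and the remaining TPM of *Egfr* was below that of *Irs1*.

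*Pdgfra* and *Pdgfrb* did not pass (log2 changes of -0.90, SE 0.74, adjusted p = 0.372, and -0.12, SE 0.51, adjusted p = 0.879) at 0 to 17 counts per library. *Grb10* was under the count filter and was not tested. Its counts went from 11 to 6 in MKOC cells and from 17 to 3 in TJ cells. Scaled to the library totals, the ratio of treated to untreated counts was 0.717 (interval 0.218 to 2.12) in MKOC and 0.180 (0.0338 to 0.621) in TJ cells, so that the MKOC libraries were not separated by counting error. The ratios of TPM were 0.218 and 0.0963, but 0.381 of the 0.507 TPM in untreated MKOC cells came from 2.25 counts on Grb10-204, a transcript of 479 bases with no coding sequence.

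**Figure D2:**
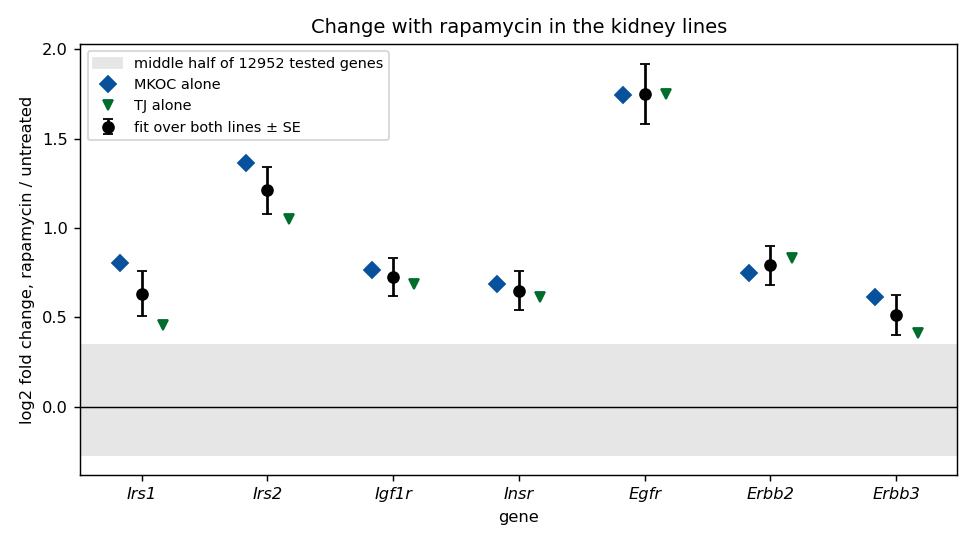
Log2 fold change with rapamycin of the 7 members expressed in the kidney lines. Black points are the edgeR fit over both lines with its SE, diamonds and triangles the change in MKOC and TJ cells alone, and the grey band the range between the quartiles of all tested genes (-0.27 to 0.34). All points lie above the band.

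The calls of *Irs1* and *Erbb3* rested on pairing the libraries by line. Without the line as a replicate block, their log2 changes were 0.65 and 0.51 with adjusted p of 0.107 and 0.0587 (edgeR), and 5 of the 7 passed, against 4.32% of 12952 genes called higher. With limma on log2(TPM + 1) the adjusted p were 0.0594 and 0.0615. Leaving out 1 library, which is only possible without the block, left 0 of the 7 past the test without untreated MKOC or untreated TJ cells, 3 without treated MKOC and 2 without treated TJ cells, fits in which 0.268%, 0.0%, 2.4% and 2.14% of all genes were called higher, though all 7 log2 changes stayed above 0. The highest transcript of each member tested was long, at least 4024 bases, and of the 3082 tested genes with transcripts that long 24.9% were called higher (median log2 change 0.10). With a trend on length removed, the changes were 1.56 for *Egfr*, 1.15 for *Irs2*, 0.70 for *Erbb2*, 0.65 for *Igf1r*, 0.47 for *Insr*, 0.46 for *Irs1* and 0.41 for *Erbb3*. Markers also moved with rapamycin. *Krt8* and *Krt18* rose, and the 6 epithelial markers summed to 877.3 and 902.4 TPM untreated against 1403 and 1551 TPM treated. *Csf1r* and *Cd14* rose too, taking the 4 macrophage markers from 18.1 and 35.1 to 27.6 and 49.7 TPM, with *Ptprc* at or below 0.0423 and *Adgre1* at or below 0.0169 TPM. The fibroblast genes *Dcn* and *Col3a1* rose (2 of 6 tested, 7.90 to 27.0 TPM summed untreated and 13.9 to 52.5 TPM treated), as did *Msln* of 2 mesothelial genes tested and *Cdh16* of 4 renal tubule genes (583.5 and 775 TPM summed untreated, 705.3 and 951.2 TPM treated), and neither endothelial gene tested passed. Their part in the changes of the members was not tested.

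*Egfr* was counted on more than 1 transcript. Egfr-201 has 28 exons and codes for the whole receptor of 1210 codons, and Egfr-202 has 16 exons and 655 codons, which ends before the kinase. In MKOC cells, the counts of Egfr-201 went from 80.1 to 259.7 while those of Egfr-202 were 37.5 and 36.8, so that the share of Egfr-202 went from 31.9% (interval 23.7% to 40.2%) to 11.9% (8.78% to 16.0%). In TJ cells, Egfr-201 went from 108.7 to 375.2 counts and Egfr-202 from 35.6 to 98.8, and the share of Egfr-202 was 24.2% (18.2% to 32.0%) and 19.7% (16.5% to 23.5%). The MKOC intervals do not overlap and the TJ intervals do. The shares are Kallisto's split of reads that the transcripts have in common, which adds an error the intervals do not cover. Egfr-204 went from 0 to 13.2 counts in MKOC and from 1.23 to 27.1 counts in TJ cells, and held 1.58 of the 4.09 TPM of treated MKOC cells. Because a short transcript weighs more in TPM, Egfr-202 held 10.9 and Egfr-204 4.13 of the 27.0 TPM of *Egfr* in *Tsc2-/-* MEFs, from 21.05% and 1.54% of the counts. *Erbb2* had 39.5% to 46.6% of its counts, depending on the library, on a processed transcript with no coding sequence. *Irs1*, *Irs2*, *Igf1r* and *Erbb3* had 1 transcript each in the table.

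Counts came from the exons of the members' transcripts. By GENCODE M21 on GRCm38, the adaptors are *Irs1* (ENSMUSG00000055980) on chromosome 1 from 82233101 to 82291416 (minus strand) and *Irs2* (ENSMUSG00000038894) on chromosome 8 from 10984681 to 11008458 (minus strand). The insulin and IGF receptors are *Insr* (ENSMUSG00000005534) on chromosome 8 from 3122061 to 3279617 (minus strand) and *Igf1r* (ENSMUSG00000005533) on chromosome 7 from 67952827 to 68233668 (plus strand). Of the ErbB receptors, *Egfr* (ENSMUSG00000020122) is on chromosome 11 from 16752203 to 16918158 (plus strand), *Erbb2* (ENSMUSG00000062312) on chromosome 11 from 98412470 to 98437716 (plus strand) and *Erbb3* (ENSMUSG00000018166) on chromosome 10 from 128567523 to 128589652 (minus strand). *Grb10* (ENSMUSG00000020176) is on chromosome 11 from 11930508 to 12038683 (minus strand), *Pdgfra* (ENSMUSG00000029231) on chromosome 5 from 75152292 to 75198215 (plus strand) and *Pdgfrb* (ENSMUSG00000024620) on chromosome 18 from 61045150 to 61085061 (plus strand). *Egfr*, *Erbb2* and *Grb10* thus lie on the same chromosome.

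**Figure D3:**
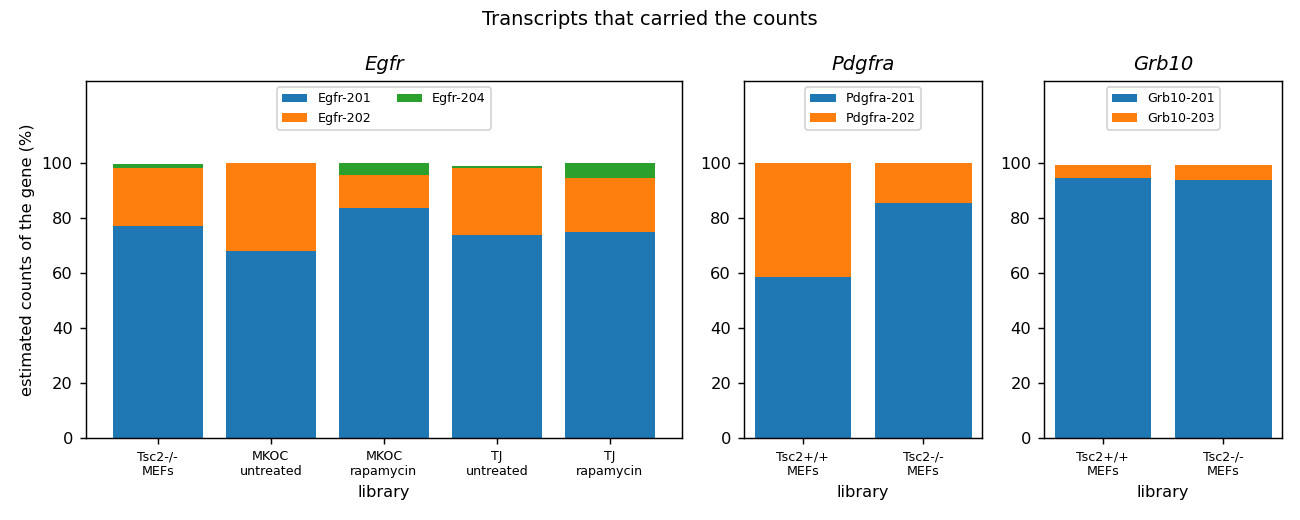
Share (%) of a gene's estimated counts on each transcript, 1 bar per library, for transcripts with at least 1% in a library shown. Egfr is shown where it had over 100 counts, and Pdgfra and Grb10 in the MEFs. Egfr-202 was 31.9% in untreated and 11.9% in treated MKOC cells, and Pdgfra-202 was 41.5% in Tsc2+/+ and 14.4% in Tsc2-/- MEFs.

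The MEF libraries compare cells labelled *Tsc2+/+* and *Tsc2-/-*. With 1 library each, the values are a comparison of 2 libraries and no test was made. Ratios of TPM were taken with 1 added, which understates the change of low genes. Members at least 2-fold higher in *Tsc2-/-* MEFs were *Irs1*, *Irs2*, *Pdgfra*, *Egfr* and *Grb10*, 5 of 10, and 1 of 10, *Erbb3*, was at least 2-fold lower. Over 12771 genes, 25.2% were at least 2-fold higher and 5.18% at least 2-fold lower, and the median log2 ratio was 0.45, so the members' median of 1.10 has to be read against a general shift toward *Tsc2-/-* MEFs.

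*Egfr* was the extreme, with 0.0353 TPM from 11 counts in *Tsc2+/+* and 27.0 TPM from 2220 counts in *Tsc2-/-* MEFs. The log2 ratio with 1 TPM added, 4.76, was above that of 99.3% of genes. With nothing added the ratio depended on the scale, at 766 in TPM (interval 434 to 1561), 310.5 in counts relative to the library total (173.2 to 622.9) and 313 in TPM of Egfr-201 alone (175 to 629), since the *Tsc2+/+* library had counts on Egfr-201 only and the *Tsc2-/-* library also on shorter transcripts. With 1 added, the log2 ratio was 6.17 in counts scaled to the library total (CPM) and 3.54 on the highest transcript. *Irs1* was at 1.10 TPM (0.983 to 1.23) and 7.06 TPM (6.63 to 7.52), a log2 ratio of 1.94. *Irs2* was at 3.96 TPM (3.62 to 4.33) and 11.2 TPM (10.4 to 12.1), a log2 ratio of 1.30. *Irs1*, *Irs2*, *Egfr* and *Igf1r* were lower in *Tsc2+/+* MEFs than in any other library. The share of all genes with this pattern was not counted, so it cannot be read as particular to these members. In TPM, 73.8% of 12771 genes were higher in *Tsc2-/-* than in *Tsc2+/+* MEFs by any amount. Transcripts under 300 bases held 20.9% of TPM in *Tsc2+/+* MEFs, more than in any other library.

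The receptors of the PDGF family went opposite ways. *Pdgfra* had a log2 ratio of 1.66, and *Pdgfrb* one of -0.49, with a TPM ratio of 0.703 (0.667 to 0.741). *Pdgfra* was counted on transcripts with different starts that code for the same 1089 codons. Pdgfra-202, which begins downstream, took 41.5% (39.4% to 43.6%) of the counts in *Tsc2+/+* and 14.4% (13.3% to 15.6%) in *Tsc2-/-* MEFs. Its TPM was 4.46 and 5.21, while that of Pdgfra-201 was 6.31 and 30.9. By Kallisto's split, the difference in *Pdgfra* lay on the transcript with the upstream start. The split divides reads that the transcripts have in common, which adds an error the intervals do not cover.

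Among the remaining members, *Grb10* was 3.13-fold higher in TPM in *Tsc2-/-* MEFs (3.08 to 3.19), a log2 ratio of 1.64. *Erbb3* was at 5.31 TPM in *Tsc2+/+* and 1.69 TPM in *Tsc2-/-* MEFs, a log2 ratio of -1.23. *Igf1r* (6.16 and 12.4 TPM, log2 ratio 0.91) and *Erbb2* (12.6 and 19.7 TPM, log2 ratio 0.60) were under 2-fold on this scale. *Insr* was nearly level, at 10.01 and 10.95 TPM, a log2 ratio of 0.12.

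**Figure D4:**
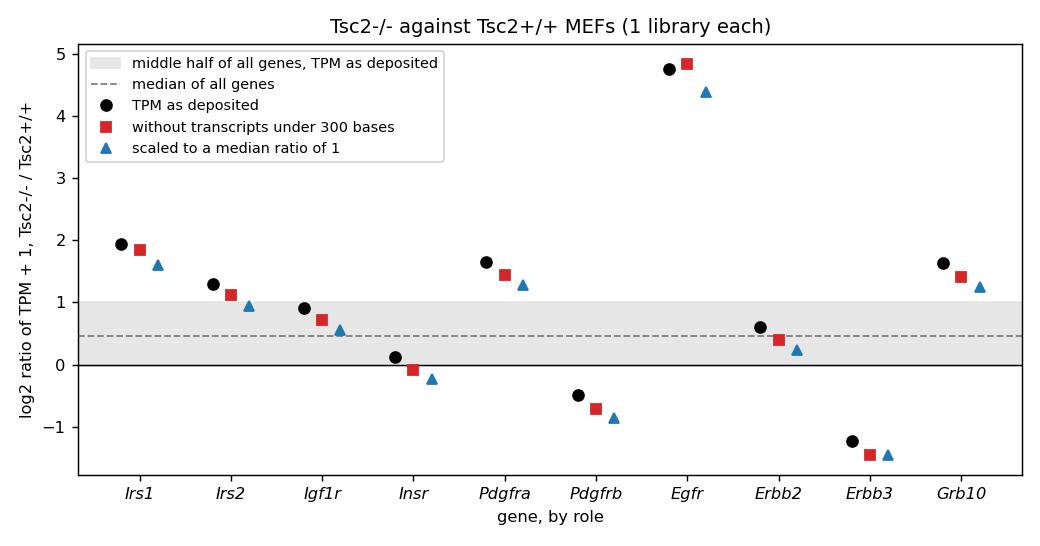
Log2 ratio of TPM + 1 in Tsc2-/- over Tsc2+/+ MEFs for the 10 genes, as deposited, without transcripts under 300 bases, and scaled to a median ratio of 1. The grey band spans the quartiles of all genes (-0.03 to 1.01) and the dashed line their median. Egfr stands above the others at 4.76, and the point of Insr changes sign with the scaling.

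The general shift came with a difference in the share of TPM on short transcripts. Transcripts under 300 bases held 20.9% of TPM in *Tsc2+/+* and 7.12% in *Tsc2-/-* MEFs. Of the genes changed at least 2-fold, 83.0% were higher in *Tsc2-/-* MEFs, against 65.8% when the libraries were scaled to a median ratio of 1 and 74.96% without the short transcripts. Scaling took *Insr* from 0.12 to -0.24, *Irs2* to 0.94 and *Igf1r* to 0.55, and left *Irs1* at 1.61, *Pdgfra* at 1.28, *Egfr* at 4.38, *Grb10* at 1.25 and *Erbb3* at -1.46. With 5 TPM added in place of 1, *Irs1* (0.98), *Irs2* (0.85) and *Erbb3* (-0.62) were under 2-fold. The mesothelial markers moved with the genotype, with 6 of 6 at least 2-fold higher in *Tsc2-/-* MEFs, and the 8 fibroblast markers summed to 1834 TPM in *Tsc2+/+* and 2471 TPM in *Tsc2-/-* MEFs. Their part in the members' differences was not tested, and with 1 library per genotype the line and the genotype cannot be told apart.

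Of the 7 members that rose with rapamycin in *Tsc2*-null kidney cells, *Irs1*, *Irs2*, *Egfr*, *Igf1r*, *Erbb2* and *Insr*, 6 of 7, were also higher in *Tsc2-/-* than in *Tsc2+/+* MEFs by any amount in TPM as deposited, as were 73.8% of 12771 genes. For *Irs1* the log2 ratio in MEFs was 1.94 and the log2 change with rapamycin 0.63, for *Irs2* 1.30 and 1.21, for *Egfr* 4.76 and 1.75, for *Igf1r* 0.91 and 0.73, and for *Erbb2* 0.60 and 0.79. *Insr* (0.12 and 0.65) changed sign in the MEFs with the scaling. *Erbb3* had a log2 ratio of -1.23 in the MEFs and rose by 0.51 with rapamycin. MEFs were not treated with rapamycin in these libraries, so both contrasts were not made in the same cells.

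The genes around the receptors were counted list by list, beside a background of 17.5% of all genes called higher and 17.4% lower with rapamycin. The lists too were chosen with earlier results of these data known. Of 14 ligand genes tested, 1 rose, 2 fell and 11 did not pass (median log2 change 0.03). *Pdgfb* rose from 57.2 to 103.6 TPM in MKOC and from 42.7 to 106.6 TPM in TJ cells (log2 change 1.08, SE 0.12). The EGFR ligands *Areg* (log2 change -1.92, SE 0.23) and *Btc* (-0.85, SE 0.21) fell, *Areg* from 13.9 to 4.22 TPM and from 11.1 to 2.55 TPM, while *Egfr* rose. *Ins1* and *Ins2* were at 0 in all libraries, and *Igf2*, at 96.8 TPM the highest ligand of the *Tsc2-/-* MEFs, was under 1 TPM in the other 5 libraries. *Pdgfa* led the ligands of *Tsc2+/+* MEFs at 32.0 TPM.

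Of 13 other receptors and adaptors tested, 2 rose, 2 fell and 9 did not pass (median -0.03). *Grb7*, an adaptor of ErbB receptors related to *Grb10*, rose by 0.77 (SE 0.15), and *Gab2*, a docking protein, by 0.40 (SE 0.11). *Igf2r*, which clears IGF2, fell by 1.10 on the log2 scale (SE 0.33) at low levels. It went from 0.314 to 0.140 TPM (55 to 19 counts) in MKOC and from 1.12 to 0.202 TPM (65 to 32 counts) in TJ cells. The fitted change is one of counts. *Grb7* was at 24.6 to 51.4 TPM in kidney cells and at or below 0.0307 TPM in MEFs, the reverse of *Grb10*. *Grb2* led this list in *Tsc2+/+* MEFs (63.4 TPM) and untreated TJ cells (85.6 TPM), and *Ptpn11* in untreated MKOC cells (86.3 TPM).

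Of 16 genes of the PI3K, AKT, FoxO and S6K list, 4 rose and 12 did not pass (median 0.07). *Foxo4* rose by 0.96 (SE 0.13), *Pik3ca*, a catalytic subunit of PI3K, by 0.63 (SE 0.12), and *Foxo3* by 0.62 (SE 0.11). The largest member of the list by level, *Akt1*, was at 218.2 to 251.7 TPM in kidney cells and had a log2 change of -0.08 that did not pass.

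Of 19 inhibitors of receptor signalling, 3 rose, 3 fell and 13 did not pass (median 0.08). *Trib3*, a pseudokinase that binds AKT, fell by 2.62 on the log2 scale (SE 0.10), from 218.3 to 35.9 TPM in MKOC and from 179.8 to 28.9 TPM in TJ cells. *Spry1* rose by 1.22 (SE 0.15) and *Spry4* fell by 0.51 (SE 0.18). *Nedd4*, a ubiquitin ligase that binds GRB10, led the list at 370.3 to 520.8 TPM in the 6 libraries.

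Of 11 known FoxO targets tested, 6 rose, 2 fell and 3 did not pass (median 0.37). *Fbxo32*, a ubiquitin ligase subunit, rose by 3.21 (SE 0.18), from 0.535 to 5.33 TPM in MKOC and from 0.444 to 3.85 TPM in TJ cells. *Ccng2*, an atypical cyclin, rose by 1.46 (SE 0.11), and *Gadd45a* fell by 1.43 on the log2 scale (SE 0.11). *Klf6* led the list in treated cells, at 245.4 TPM in MKOC and 193.6 TPM in TJ.

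Of 11 genes downstream of ERK, 2 rose, 3 fell and 6 did not pass (median 0.17). *Egr1* rose by 1.51 (SE 0.29), from 10.04 to 50.9 TPM in MKOC and from 22.8 to 37.3 TPM in TJ cells, and *Ccnd1*, cyclin D1, by 0.71 (SE 0.13). *Fosl1* fell by 1.14 on the log2 scale (SE 0.12). *Spry2*, *Spry4* and *Dusp6* stand in both this list and that of the inhibitors. *Ier3* led the list in both MEF libraries and *Ccnd1* in MKOC cells (731.7 TPM untreated).

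**Figure D5:**
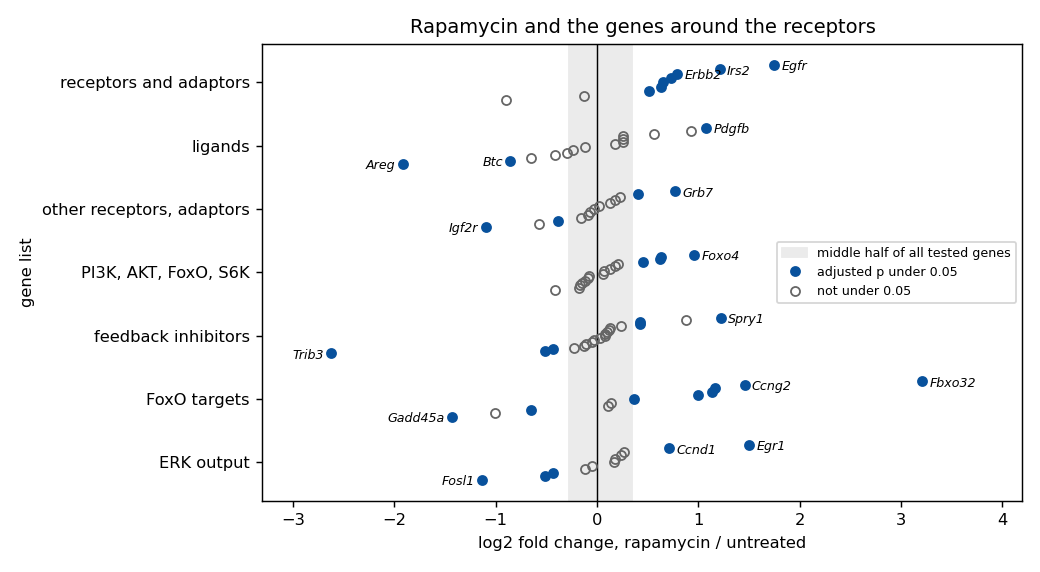
Log2 fold change with rapamycin of each tested gene in 7 lists, 1 point per gene, filled where the edgeR adjusted p was under 0.05. The grey band spans the quartiles of all tested genes. The receptors and adaptors lie to the right but for Pdgfra and Pdgfrb, and the other lists have filled points on both sides except that of PI3K, AKT, FoxO and S6K.

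Profiles over the 6 libraries were compared as centred log2(TPM + 1) values, with the root mean square difference as the measure of likeness among 10702 other genes of at least 5 TPM in 1 library. These are descriptions over 6 libraries of 4 lines. *Insr* was closest to *Flna* (0.05) and *Jmjd1c* (0.06), and *Erbb2* to *Ghdc* (0.07) and *Sepn1* (0.08). *Igf1r* was closest to *Ssna1* (0.09) and *Dhrs1* (0.09), *Irs2* to *Lrrn4cl* (0.10) and *Arvcf* (0.12), and *Irs1* to *Prss23* (0.11) and *Dcbld2* (0.12). *Pdgfra* was closest to *Glipr2* (0.07) and *Myl9* (0.08), and *Pdgfrb* to *Pogk* (0.11). *Erbb3* was closest to *Naip2* (0.16) and *Steap2* (0.18), *Grb10* to *Acta2* (0.29) and *Fabp5* (0.41), and *Egfr* to *Frmd4b* (0.30) and *Igfbp2* (0.38).

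Among the members themselves, *Insr* and *Erbb2* were the most alike pair (0.16), followed by *Irs1* and *Irs2* (0.31), *Irs2* and *Igf1r* (0.39) and *Irs1* and *Igf1r* (0.40). The PDGF receptors differed from each other by 0.65. *Grb10* was far from every member, with its smallest difference, 1.51, to *Pdgfrb*. *Insr* varied least over the libraries (SD 0.31 of log2(TPM + 1)) and *Grb10* most (SD 3.96).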

How the data were processed

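Of the 6 libraries, 2 were of MEFs and 4 of kidney lines, made from poly(A)-selected stranded RNA-Seq with paired-end reads. The authors trimmed the reads with Trimmomatic and quantified transcripts with Kallisto, and deposited estimated counts and TPM for 88198 transcripts, with lengths. The paper names a human reference for Kallisto, whereas the identifiers are those of mouse transcripts, and the transcriptome release used for Kallisto is not given in the sources used here. The authors' deposited fold change, a ratio per transcript between the MEF libraries, was used only for its gene symbols. Symbols were missing for 1006 transcripts (0.372% to 0.468% of counts), which were left out, and the first of 2 symbols was taken for 8. Positions and transcript types came from GENCODE M21 (GRCm38), which held 86031 of the transcripts.

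The 10 members and all lists were chosen with earlier results of these data known. TPM and estimated counts were summed per symbol, and counts were rounded to whole numbers. Rapamycin was tested over 4 kidney libraries with edgeR's quasi-likelihood test (filterByExpr, TMM, line as covariate), and untreated kidney against MEF libraries likewise without a covariate, with Benjamini-Hochberg adjustment over all genes at 0.05. The line pairs the libraries by the labels, and deviations of the libraries of a line from the treatment mean had a correlation of 0.52 over 12952 genes. MEF and line comparisons have 1 library a side and are ratios of TPM with 1 added, over genes of at least 1 TPM in a library compared. Intervals are 95% Wilson intervals for levels and shares and exact binomial intervals for ratios, and the floor was 3 counts. Genes outside the members were named where they were among the 3 largest changes of a list past the test, led a list in a library, were 1 of the 2 closest profiles, or served as cell type markers. A few genes that this rule names are not reported here. Alternatives were DESeq2, limma, other size factors, filters, pseudocounts and scalings, each library left out, and GC and length trends (lowess), the last chosen after seeing the data. The steps were tested on simulated data. The fits were run in R 4.3.3 (DESeq2 1.42.0, limma 3.58.1, edgeR 4.0.16) and the remaining steps in Python 3.11.15 with statsmodels 0.14.6, scipy 1.17.1, pandas 2.3.3, matplotlib 3.10.9 and numpy 2.4.6.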

Additional observations from a re-analysis of the deposited data

How the results depend on the processing

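Rapamycin called 4526 genes with edgeR, 1275 without the replicate block, 2166 with limma on log2(TPM + 1), and 0 to 613 when 1 kidney library was left out without the block (2688 at an unadjusted p under 0.05 where it called 0, without untreated TJ cells). The block changed the call of *Irs1* and *Erbb3* and of no other member. Across all of these settings the log2 change stayed between 1.42 and 1.996 for *Egfr*, 0.96 and 1.44 for *Irs2*, and 0.36 and 0.89 for *Irs1*. The comparison of kidney cells with MEFs called 1338 genes with edgeR, 4185 with DESeq2 (which added *Insr* and *Erbb2* to the members called), and 0 to 7924 when 1 library was left out, and *Irs1* turned from 0.08 to -0.61 without *Tsc2+/+* MEFs (1.56 without *Tsc2-/-* MEFs) while *Egfr* turned from -3.23 to 3.96 without *Tsc2-/-* MEFs (-4.20 without *Tsc2+/+* MEFs) and *Irs2* from -0.34 to 0.26 (-0.73 without *Tsc2+/+* MEFs). The cause was not tested. With 5 TPM added, 2139 genes were changed at least 2-fold in the MEFs in place of 3884, and 46 between the kidney lines in place of 158. Removing a trend on GC content left the rapamycin changes of the 7 expressed members between 0.49 and 1.80, a setting chosen after seeing the data. The MEF genotypes have 1 library each, the kidney lines 1 per treatment, and counts of 17 or fewer limit what can be said of *Grb10*, *Pdgfra* and *Pdgfrb* in kidney cells.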
